A study of Mus musculus with 18 samples.

Results

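The thick ascending limb is the last part of the loop of Henle, before the distal tubule of the nephron. In the kidneys of this series 9 genes known for their expression there were followed: Umod, Egf, Slc12a1, Kcnj1, Bsnd, Cldn10, Cldn16, Cldn19 and Casr. They were found by symbol in the deposited table, where all 9 of them were among the 19545 listed genes and all 9 were among the 12385 genes tested. RNA of whole kidney was sequenced from ICR mice aged 10 weeks, an outbred strain, in 18 libraries that the labels put in 6 groups of 3. Controls are labelled as such with no agent named, and the AOS group received AOS at 10 mg/kg, an abbreviation left unexplained in the labels. HS stands for a high fat diet combined with STZ (streptozotocin), which kills the insulin-producing beta cells. HS_AOS had the diet, STZ and AOS at 10 mg/kg. HS_AOS_FMT and HS_control_FMT had the diet and STZ with an FMT, commonly faecal microbiota transplantation, that the labels name after AOS at 10 mg/kg or after control. Whether the 3 libraries of a group are 3 different mice is not stated, and the p-values therefore reflect the spread among these libraries, which may be technical. The design text names the effect of FMT on kidney damaged by the diet and STZ as the question.

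The thick ascending limb takes up sodium chloride from the tubular fluid without letting water follow. The cotransporter NKCC2, encoded by Slc12a1, carries sodium, potassium and chloride into the cell across the apical membrane, and the potassium channel ROMK, encoded by Kcnj1, returns potassium to the fluid. Chloride leaves on the blood side through ClC-K channels, which need barttin, encoded by Bsnd. The resulting voltage drives sodium, calcium and magnesium between the cells through pores made of claudins, and the calcium-sensing receptor, encoded by Casr, lowers this transport when calcium is high. The segment also makes uromodulin (Umod), the most abundant protein of normal urine, and, with the distal convoluted tubule, the precursor of epidermal growth factor (Egf).

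Of the 9 genes, 4 were lower in HS_AOS than in control at an adjusted p under 0.05 (Umod, Egf, Bsnd and Casr), and Egf and Bsnd were also lower in HS_control_FMT than in control. Of all tested genes, 1.26% were called lower in HS_AOS against control and 1.80% in HS_control_FMT against control. None of the 9 passed in the other 8 comparisons, where 0.0646% to 3.99% of all tested genes were called. Umod, Slc12a1 and Cldn19 varied together from library to library, while no correlation of Cldn10 with the other 8 passed the test over the 18 libraries. Levels are in FPKM, fragments scaled by transcript length and library size, and differences are on the scale of log2(FPKM + 1), on which genes at low levels change less than in FPKM itself. In whole kidney RNA, fewer cells of the segment and less RNA per cell cannot be told apart.

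Some facts of the libraries bear on every comparison with control. All 3 control libraries carried transcripts of male germ cells (Prm1, Prm2, Tnp1 and Tnp2 summing to 26.1 to 37.1 FPKM), which summed to 0.47 FPKM or less in the other 15. Control 3, the control library numbered 3, stood apart: its 10 proximal tubule markers summed to 19730 FPKM against 71833 or more elsewhere, its 7 markers of the distal convoluted and connecting tubule to 3433 against 1653 or less, and its 6 injury markers to 2532 against 621 or less. The 11 adrenal markers had sums of 917 FPKM (control 3), 575 (HS 3), 415 (HS_AOS_FMT 2) and 70.6 (HS_AOS_FMT 3), against at most 8.51 for each of the remaining 14 libraries. Such sums follow mostly the genes at the highest levels, so they do not show that every marker of a list differed. The 9 thick ascending limb genes were above 0 in every library. Their sum was 1400 to 1898 FPKM in control, 760 to 980 in HS_AOS and between 899.7 and 1806 in the other 4 groups.

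Umod lies at chr7:119462708-119479262 (GRCm38, RefSeq), and had the highest mean of the set, 639 FPKM over the 18 libraries. The 3 controls were at 692.64, 1031.72 and 898.48 FPKM, the HS libraries at 441.25, 635.25 and 497.87, and the HS_AOS libraries at 394.53, 217.92 and 364.22. The 3 HS_AOS libraries all lay below the 3 HS libraries, and these all below the 3 controls. In AOS it was 929.82, 686.51 and 583.21 FPKM, in HS_AOS_FMT 370.03, 731.72 and 700.32, and in HS_control_FMT 703, 1023.47 and 592.53. These 3 groups overlapped control and each other. By group mean the order was control, HS_control_FMT, AOS, HS_AOS_FMT, HS and HS_AOS, and HS and HS_AOS were the only neighbours in it whose libraries did not overlap. Umod was lower in HS_AOS than in control (325.6 ± 94.4 against 874.3 ± 170.8 FPKM, SD, n = 3 each), by a log2 difference of -1.45 with an SE of 0.30 (limma, adjusted p = 0.0256).

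Egf (chr3:129677574-129755322) had its 3 controls above all 15 other libraries. Its level was 251.43, 274.25 and 324.91 FPKM in control, and the highest of the other 15 libraries, HS_AOS_FMT 2, was at 223. In AOS it was 220.12, 191.27 and 184.7 FPKM, and in HS 188.47, 184.17 and 157.74. In HS_AOS it was 176.44, 170.46 and 174.04 FPKM, the narrowest spread of the 6 groups. HS_AOS_FMT had 168.99, 223 and 219.71 FPKM, and HS_control_FMT 162.03, 220 and 152.14. Among the 5 groups other than control, neighbours in the order of means all overlapped. The lowest control was control 1, so the gap does not rest on control 3. The difference from control was -0.70 (SE 0.14, adjusted p = 0.0256) in HS_AOS and -0.68 (SE 0.14, adjusted p = 0.0181) in HS_control_FMT, and -0.67 (adjusted p = 0.146) in HS, -0.51 (adjusted p = 0.674) in AOS and -0.48 (adjusted p = 0.131) in HS_AOS_FMT.

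**Figure D1:**
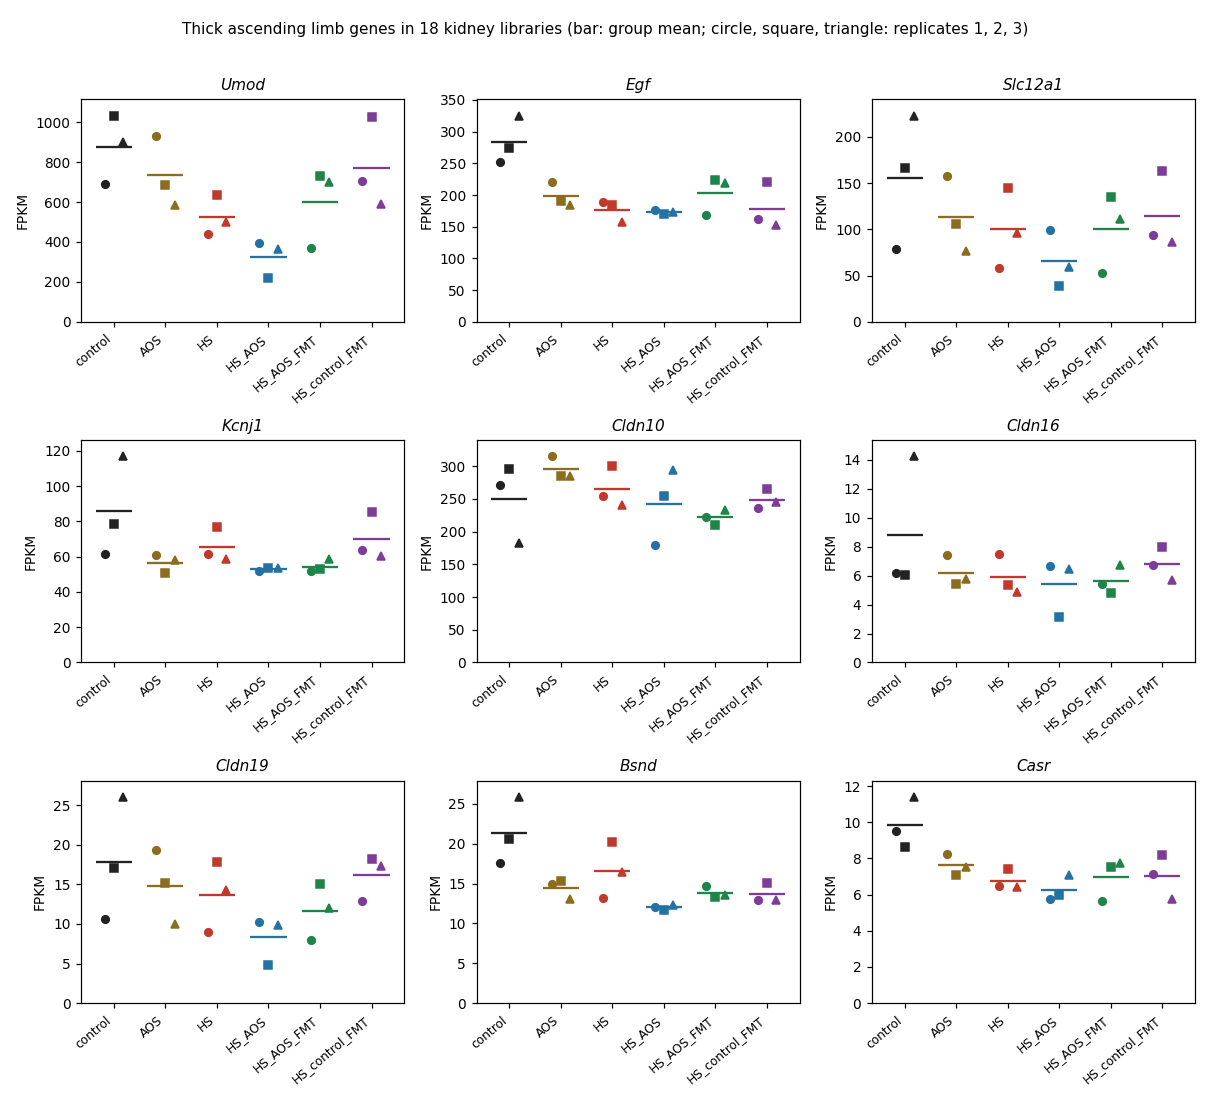
FPKM of the 9 genes (vertical axes, from 0) in the 6 groups (horizontal axes), with circles, squares and triangles for the libraries numbered 1, 2 and 3 and a bar for the group mean. Egf and Casr have all 15 other libraries below the 3 controls, and Umod has its lowest values, 217.92 to 394.53 FPKM, in HS_AOS.

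Over the 18 libraries Umod and Egf varied together on the log2 scale (Pearson r = 0.64, adjusted permutation p = 0.00894, and 0.73 over deviations from the group means). The ratio of Umod to Egf, which was not tested, still differed between some groups. It was 2.75, 3.76 and 2.77 in control, 2.34, 3.45 and 3.16 in HS, and 2.24, 1.28 and 2.09 in HS_AOS. In HS_control_FMT it was 4.34, 4.65 and 3.89, above every HS, HS_AOS and HS_AOS_FMT library and every control. The AOS libraries were at 4.22, 3.59 and 3.16 and those of HS_AOS_FMT at 2.19, 3.28 and 3.19. In HS_control_FMT the level of Umod thus overlapped control while that of Egf lay below it, and in HS_AOS both lay below.

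Slc12a1 (chr2:125152510-125230002), the cotransporter gene and the target of loop diuretics, varied most within groups, with an SD of 0.64 on the log2 scale. Its level was 78.76, 166.16 and 222.64 FPKM in control, 58.62, 145.11 and 95.93 in HS, and 99.52, 38.52 and 59 in HS_AOS. AOS had 157.23, 105.9 and 76.61 FPKM, HS_AOS_FMT 53.3, 135.27 and 111.44, and HS_control_FMT 93.66, 163.12 and 86.42. All neighbours in the order of group means overlapped, and the highest library was 5.78 times the lowest. HS_AOS minus control was -1.21 with an SE of 0.48 (adjusted p = 0.189), so a large difference of means did not pass at this spread.

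Kcnj1 (chr9:32372418-32399197) was at 61.53, 78.72 and 116.81 FPKM in control and at 51.94, 53.62 and 53.58 in HS_AOS, all below the controls (log2 -0.63, SE 0.18, adjusted p = 0.0796). AOS, at 61.04, 50.66 and 58.06 FPKM, and HS_AOS_FMT, at 51.65, 53.03 and 58.46, were also below every control, with adjusted p = 0.674 and adjusted p = 0.134. HS had 61.71, 76.58 and 58.46 FPKM and HS_control_FMT 63.52, 85.41 and 60.63. The latter 2 groups overlapped control.

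Bsnd (chr4:106483456-106492243), the barttin gene, is also used by intercalated cells of the collecting duct. It was at 17.57, 20.56 and 25.86 FPKM in control and at 12.06, 11.7 and 12.32 in HS_AOS, the group that stood apart at the bottom of its order. HS had 13.22, 20.24 and 16.43 FPKM, and HS 2 was the only one of the 15 other libraries at or above the lowest control. AOS had 14.99, 15.34 and 13.1, HS_AOS_FMT 14.71, 13.31 and 13.6, and HS_control_FMT 12.98, 15.04 and 12.97. Bsnd was lower than in control in HS_AOS (log2 -0.76, SE 0.14, adjusted p = 0.0165) and in HS_control_FMT (log2 -0.59, SE 0.14, adjusted p = 0.0302), and it missed the threshold in HS_AOS_FMT (log2 -0.57, adjusted p = 0.0699). Of the 7 intercalated cell markers, 0 passed in HS_AOS against control (6 negative, median log2 -0.20) and 1 was lower in HS_control_FMT against control (7 negative, median log2 -0.49). Their part in the Bsnd difference was not tested.

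Of the 3 claudins, Cldn16 (chr16:26463135-26482765) and Cldn19 (chr4:119255441-119262438) encode partners in the pore for calcium and magnesium. Both were at low levels, with means of 6.46 and 13.8 FPKM over the 18 libraries. Cldn19 was at 10.6, 17.01 and 26.01 FPKM in control, 8.98, 17.79 and 14.22 in HS and 10.21, 4.82 and 9.89 in HS_AOS. Every HS_AOS library was below every control (log2 -0.997, SE 0.35, adjusted p = 0.143). Cldn19 was at 19.36, 15.2 and 9.99 FPKM in AOS, 7.96, 15.05 and 12.03 in HS_AOS_FMT and 12.93, 18.2 and 17.29 in HS_control_FMT, and these groups overlapped control.

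Cldn16 was at 6.2, 6.01 and 14.21 FPKM in control, where control 3 alone was far above the rest. It was at 7.42, 5.43 and 5.74 in AOS, 7.47, 5.37 and 4.86 in HS, and 6.69, 3.14 and 6.44 in HS_AOS. HS_AOS_FMT had 5.38, 4.76 and 6.75 and HS_control_FMT 6.74, 7.98 and 5.69. No group of Cldn16 stood apart from its neighbour in the order of means, and HS_AOS minus control was -0.57 (SE 0.28, adjusted p = 0.309).

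Cldn10 (chr14:118787871-118874525) was the steadiest gene of the set over all libraries, though not within groups, with a highest library of 1.75 times the lowest. The gene makes a pair of claudins from alternative first exons, one a cation pore of the thick ascending limb and the other an anion pore of the proximal tubule, and the table holds 1 value for both. It was at 271.35, 295.09 and 182.84 FPKM in control, 314.97, 285.87 and 285.4 in AOS, and 254.8, 300.37 and 241 in HS. HS_AOS had 180.21, 254.01 and 293.7, HS_AOS_FMT 222.09, 209.77 and 233.42, and HS_control_FMT 236.73, 264.68 and 244.65. Control 3, which held the highest value of 7 of the other 8 genes, held the second lowest of Cldn10. No comparison with control passed, and the differences ran from -0.14 (HS_AOS_FMT, adjusted p = 0.739) to 0.27 (AOS, adjusted p = 0.676).

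Casr (chr16:36490585-36562141) was the other of the 9 genes with every control above all 15 other libraries, a pattern of 0.234% of the genes tested. The germ-cell transcripts that only the controls carried in quantity follow the same split, and their part in it was not tested. Its 3 control values were 9.52, 8.64 and 11.39 FPKM, and the highest of the other 15 libraries, AOS 1, was at 8.27. The other 2 AOS libraries had 7.11 and 7.51 FPKM, while HS had 6.48, 7.41 and 6.41 and HS_AOS 5.76, 5.99 and 7.08. HS_AOS_FMT had 5.63, 7.51 and 7.73 and HS_control_FMT 7.14, 8.18 and 5.77. Here too the lowest control was not control 3. Casr was lower in HS_AOS than in control (log2 -0.57, SE 0.14, adjusted p = 0.0360), while the HS difference of -0.48, the HS_AOS_FMT difference of -0.45 and the HS_control_FMT difference of -0.44 had adjusted p = 0.466, adjusted p = 0.131 and adjusted p = 0.0894.

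**Figure D2:**
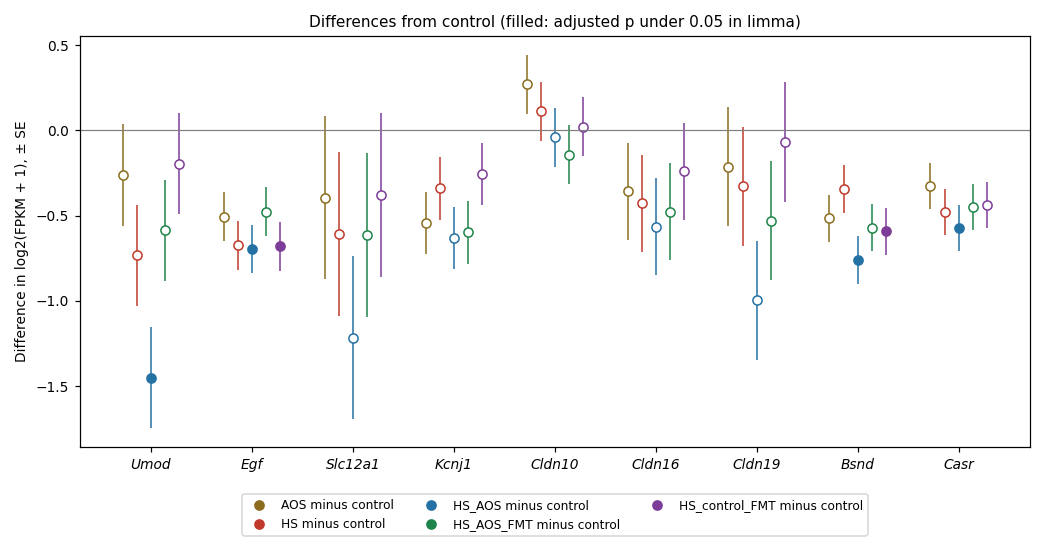
Difference from control in log2(FPKM + 1) (vertical axis, bars ± SE) for the 9 genes (horizontal axis) in the 5 other groups (colours), filled where the adjusted p was under 0.05. Filled points are Umod, Egf, Bsnd and Casr in HS_AOS and Egf and Bsnd in HS_control_FMT, and those of Cldn10 lie between -0.14 and 0.27.

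HS against control sets the diet and STZ against controls with no agent named, and also the libraries without germ-cell transcripts against those with them. In it 0 of the 9 genes passed, with 0.0646% of all tested genes called, and 4 (Egf, Casr, Bsnd and Umod) had an unadjusted p under 0.05, all lower, as did 3.29% of all genes. The median of the 9 genes was -0.43 beside 0.00 over all genes. Markers of principal cells (6 of 6, median log2 -0.25), intercalated cells (7 of 7, -0.14), the distal convoluted and connecting tubule (6 of 7, -0.26) and injury (6 of 6, -0.33) were negative too. Those of the proximal tubule (6 of 10, 0.10), podocytes (4 of 5, 0.10), endothelium (6 of 6, 0.33) and erythroid cells (5 of 5, 0.99) were mostly positive. Of these 0 passed, and their part was not tested. Egf, Casr and Umod had all 3 HS libraries below all 3 controls, a pattern found in 3.95% of all tested genes. The 4 comparisons of a diet and STZ group with control use the same 3 control libraries, and AOS against control uses them too, so their values are not independent. Without control 3 the median of the 9 genes was -0.20 in HS.

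HS_AOS against control held the larger differences. Of the 9 genes, 4 were lower, with 1.26% of all tested genes called lower, and all 9 differences were negative with a median of -0.70 beside 0.01 over all genes. In 6 genes all HS_AOS libraries lay below all controls, against 6.95% of all genes. The calls depend on the spread that all 6 groups share: with only HS_AOS and control in the fit 0 of the 9 passed, and without HS_AOS 2 or without HS_AOS 3 only Bsnd did. Over 16 alternatives Bsnd passed in 15, Egf in 13, Umod in 12 (not without control 2, adjusted p = 0.0615) and Casr in 8 (not without control 1 or control 3, nor without any of the 3 HS_AOS libraries). HS_AOS 2 held the lowest value of the series for Umod, Slc12a1, Cldn16, Cldn19 and Bsnd. In the same comparison 9 of the 10 proximal tubule markers were positive (median log2 0.32). All 7 of the distal convoluted and connecting tubule (-0.23), 5 of 6 of principal cells (-0.40) and 3 of 4 of the inner medulla (-0.91) were negative. None of these passed. All 6 injury markers (-0.84) and 5 of 6 macrophage markers (-0.45) were negative as well, and 1 macrophage marker was called lower. Podocyte (4 of 5, 0.24) and endothelial markers (5 of 6, 0.15) were mostly positive. The part of tissue composition in the difference was not tested.

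HS_control_FMT against control called Egf and Bsnd, 2 of the 9, lower, with 1.80% of all tested genes called lower, and the median was -0.26 beside -0.07 over all genes. In 3 genes (Egf, Bsnd and Casr) all libraries lay below all controls, as in 12.9% of all genes. Here 2 of the 7 distal convoluted and connecting tubule markers were lower as well, and all 7 were negative (median log2 -0.74). Neither gene passed without control 3 (Egf log2 -0.58, adjusted p = 0.0514, and Bsnd log2 -0.45, adjusted p = 0.0868), without HS_control_FMT 1 or HS_control_FMT 3, or with the 2 groups alone in the fit. Without HS_control_FMT 2 Egf alone passed.

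In HS_AOS_FMT against control 0 of the 9 passed (0.460% of all genes called), all 9 differences were negative, and the median was -0.53 beside 0.00 over all genes. Egf, Kcnj1, Casr and Bsnd had an unadjusted p under 0.05, as 6.82% of all genes did with a lower value. The same 4 had all libraries below all controls, a pattern of 7.65% of all genes. All 7 markers of the distal convoluted and connecting tubule were negative there too (median log2 -0.53), as were 5 of 6 of principal cells (-0.63) and 6 of 7 of intercalated cells (-0.36), and 0 of them passed. AOS against control called 0 of the 9, with 0.0646% of all genes called, and 8 of 9 differences were negative with a median of -0.36 beside -0.09 (-0.22 without control 3). The same 4 genes had all AOS libraries below all controls, a pattern of 10.1% of all genes, and an unadjusted p under 0.05, as 6.0% of all genes did with a lower value. Markers of principal cells (6 of 6, median log2 -0.47), of intercalated cells (7 of 7, -0.38), of the distal convoluted and connecting tubule (7 of 7, -0.32) and of injury (6 of 6, -0.98) were negative as well, with 0 past the threshold. The part of tissue makeup in these differences was not tested.

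Within the diet and STZ groups no member passed. HS_AOS against HS called 0 of the 9 and 2.30% of all genes, and all 9 differences were negative with a median of -0.29 beside 0.01. In the same comparison all 4 inner medulla markers (median log2 -0.76), all 6 macrophage markers (-0.25) and all 5 erythroid markers (-1.25) were negative and 8 of 10 proximal tubule markers positive (0.27), with 0 past the threshold, and their part was not tested. Umod (log2 -0.72, SE 0.30, adjusted p = 0.194) and Bsnd (log2 -0.42, SE 0.14, adjusted p = 0.110) had an unadjusted p under 0.05, as 9.52% of all genes did with a lower value. With Kcnj1 they were the 3 genes whose HS_AOS libraries all lay below HS, as 11.1% of all genes did. Bsnd passed without HS 1 (adjusted p = 0.0344). Egf, which was below control in both groups, differed between them by -0.02 (SE 0.14, adjusted p = 0.950).

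The FMT groups overlapped HS in all 9 genes, except that the 3 HS_AOS_FMT libraries lay below HS in Cldn10 (log2 -0.25, SE 0.17, adjusted p = 0.472), as in 13.7% of all genes. HS_AOS_FMT against HS called 0 of the 9 and 0.977% of all genes (6 negative and 3 positive, median -0.05), and HS_control_FMT against HS called 0 of the 9 and 0.751% (3 negative and 6 positive, median 0.08, or -0.06 without HS_control_FMT 2). The largest difference in either was that of Umod in HS_control_FMT, 0.54 with an SE of 0.30 (adjusted p = 0.411). HS_AOS_FMT against HS_control_FMT called 3.99% of all genes and 0 of the 9, with 7 negative and a median of -0.24 beside 0.07 (-0.07 without HS_AOS_FMT 1). Kcnj1 (log2 -0.34, SE 0.18, adjusted p = 0.325) and Cldn10 (log2 -0.16, SE 0.17, adjusted p = 0.655) had all HS_AOS_FMT libraries below all HS_control_FMT libraries, a pattern of 7.56% of all genes. These 4 comparisons share HS or FMT libraries with each other, so their values are not independent. At unadjusted p under 0.05 none of the 9 passed in the 3 comparisons that involve only FMT groups and HS. The share of all genes there, in either direction, was 18.1% in HS_AOS_FMT against HS and 15.2% in HS_control_FMT against HS. It was 19.8% in HS_AOS_FMT against HS_control_FMT.

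The difference between the AOS effect in HS and the AOS effect in control was tested directly. It called 0 of the 9 and 0.0727% of all genes. Egf had the smallest p, with a difference of 0.49 (SE 0.20, adjusted p = 0.285): AOS minus control was -0.51 and HS_AOS minus HS was -0.02. For Umod the difference was -0.45 (SE 0.42, adjusted p = 0.639). The median of the 9 genes was 0.10, and it was -0.15 without control 3.

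Over the 18 libraries, some of the 9 genes moved together closely. Pearson correlations of log2(FPKM + 1) were taken over all 36 pairs, with permutation p-values, 2-sided and adjusted over the 36 pairs. Slc12a1 and Cldn19 had r = 0.92 and Spearman's rho = 0.89 (p = 1e-05 for both, the smallest these permutations can give, and adjusted p = 9e-05 and adjusted p = 0.00036). Without the 2 libraries farthest from the median of Slc12a1 r was 0.87, and over deviations from the group means it was 0.91, so the pair varied together inside the groups as well. Umod followed both: r was 0.88 with Slc12a1 (rho 0.85, permutation p = 1e-05 and p = 3e-05, adjusted p = 9e-05 and adjusted p = 0.00036) and 0.86 with Cldn19 (rho 0.79, permutation p = 1e-05 and p = 0.00019, adjusted p = 9e-05 and adjusted p = 0.00137). Without the 2 farthest libraries these were 0.81 and 0.76, and within groups 0.90 and 0.79.

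Egf and Casr made the other close pair, with r = 0.90 and rho = 0.86 (permutation p = 1e-05 and p = 2e-05, adjusted p = 9e-05 and adjusted p = 0.00036), 0.83 without the 2 farthest libraries and 0.80 within groups. Of the 28 pairs without Cldn10, 26 passed an adjusted p of 0.05 by Pearson's r and 18 by Spearman's rho. Not all of these held without the farthest libraries: Cldn16 with Cldn19 had r = 0.61 (permutation p = 0.0101, adjusted p = 0.0159) and rho = 0.29 (p = 0.245, adjusted p = 0.315), with r at -0.02 without the 2 farthest libraries and 0.45 without control 3, so its r rests on those libraries. The 8 pairs with Cldn10 had r between -0.29 and 0.16, and 0 passed by either measure. That range rests on the libraries at the edge: r was between 0.11 and 0.56 without control 3, with the highest for Casr, and between 0.20 and 0.48 without the 2 farthest libraries. All pairs come from the same 18 libraries and share their tissue makeup.

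**Figure D3:**
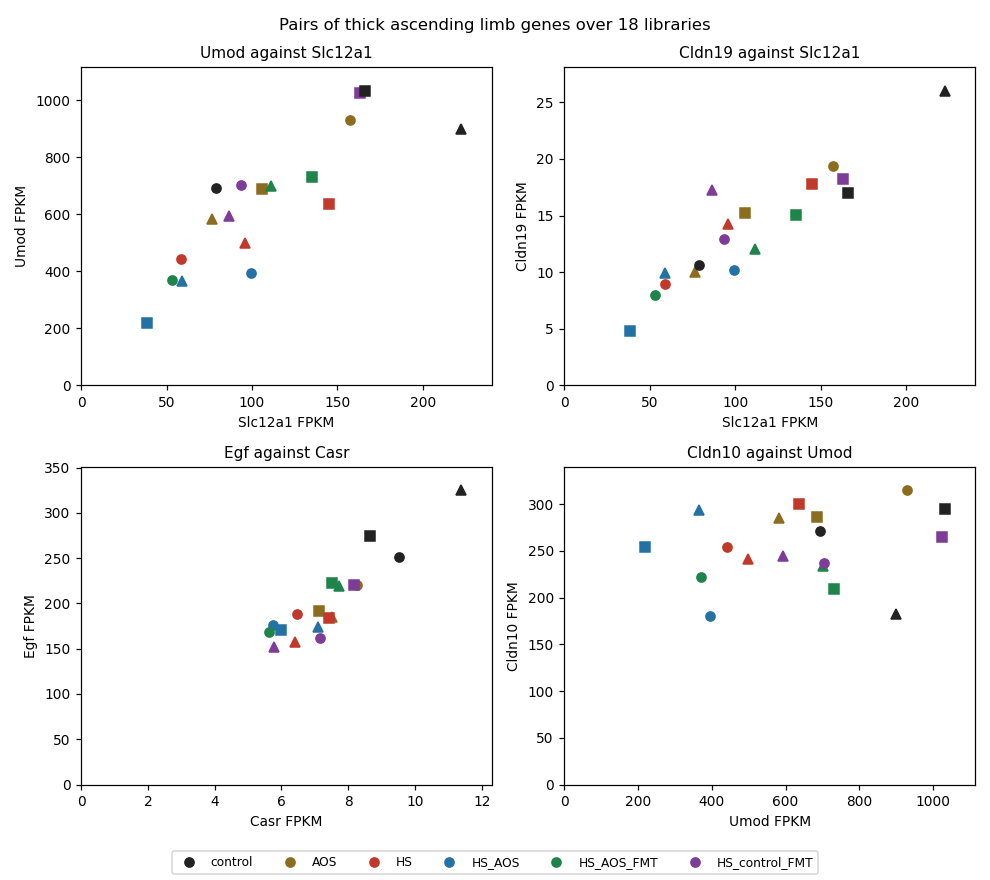
FPKM of pairs of genes over the 18 libraries (both axes linear from 0, colours for groups, circles, squares and triangles for libraries 1, 2 and 3). Slc12a1 rises with Umod (r = 0.88) and Cldn19 (r = 0.92) and Casr with Egf (r = 0.90), while Cldn10 and Umod have r = 0.16, or 0.33 without control 3.

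Promoter sequence from RefSeq (GRCm38.p6) was matched for 8 of the 9 genes (all but Bsnd). The 250 bases before a start are shown for Umod and Cldn19, which varied together, and for the 2 starts of Cldn10, which share 1 value in the table. They are written 5′ to 3′ on the gene's strand, and matches to AAGGTCA, a site of the estrogen-related receptors, or its reverse complement TGACCTT would stand in capitals. The regions are chr7:119479263-119479512 (minus strand), chr4:119255191-119255440 (plus), chr14:118787621-118787870 (plus) and chr14:118854700-118854949 (plus).
Umod: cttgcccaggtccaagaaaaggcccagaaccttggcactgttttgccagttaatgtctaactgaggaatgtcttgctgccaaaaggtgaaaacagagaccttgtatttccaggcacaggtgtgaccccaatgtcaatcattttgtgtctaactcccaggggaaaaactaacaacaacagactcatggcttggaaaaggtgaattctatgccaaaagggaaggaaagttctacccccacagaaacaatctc
Cldn19: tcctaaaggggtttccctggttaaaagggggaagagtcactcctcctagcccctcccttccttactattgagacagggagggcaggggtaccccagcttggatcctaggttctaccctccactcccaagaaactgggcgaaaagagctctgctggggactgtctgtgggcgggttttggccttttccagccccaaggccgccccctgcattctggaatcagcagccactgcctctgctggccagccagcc
Cldn10, upstream start: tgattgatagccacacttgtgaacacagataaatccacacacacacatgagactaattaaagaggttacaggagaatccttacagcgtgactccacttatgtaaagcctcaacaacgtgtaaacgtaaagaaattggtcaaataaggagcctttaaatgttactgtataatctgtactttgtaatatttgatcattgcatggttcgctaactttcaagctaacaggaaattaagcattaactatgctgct
Cldn10, downstream start: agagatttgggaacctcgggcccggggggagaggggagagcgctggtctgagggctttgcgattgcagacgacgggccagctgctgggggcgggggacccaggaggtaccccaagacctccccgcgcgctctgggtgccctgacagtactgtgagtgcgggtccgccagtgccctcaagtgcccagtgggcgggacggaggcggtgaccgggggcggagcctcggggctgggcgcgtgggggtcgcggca
In windows of 300 bases that add the first bases after the start, AAGGTCA on either strand was found in 0 of the 11 windows of the 8 genes and in 4.72% of all 32851 windows in the table. This says only that these letters are not in these windows.

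Of 46 other genes that serve the segment, listed by role, 41 were tested, and Kcnma1, Calcr, Enox1, Nos1 and Ptgs2 were below the filter. None of the 41 passed in HS against control, HS_control_FMT against HS, AOS against control, HS_AOS_FMT against control or the difference of the AOS effects. In HS_AOS against control 1 was higher and 0 were lower, with 15 of 41 lower and 4 of 41 higher at an unadjusted p under 0.05, against 8.56% and 9.75% of all genes. The median of the list there was -0.16, against -0.70 for the 9 genes.

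Slc9a3, which encodes the sodium-proton exchanger NHE3 of the thick ascending limb and the proximal tubule, was higher in HS_AOS and HS_AOS_FMT than in HS. It was at 25.67, 26.65 and 22.2 FPKM in HS, 38.92, 35.41 and 36.4 in HS_AOS, 40.78, 38.38 and 36.95 in HS_AOS_FMT and 25.29, 24.34 and 23.44 in HS_control_FMT. No library of HS_AOS or HS_AOS_FMT overlapped HS or HS_control_FMT. All libraries of the first group lay above the second in 13.6% of all genes for HS_AOS against HS. The share was 15.8% for HS_AOS_FMT against HS and 21.8% for HS_AOS_FMT against HS_control_FMT. The differences were 0.56 in HS_AOS against HS (SE 0.11, adjusted p = 0.0239), 0.62 in HS_AOS_FMT against HS (SE 0.11, adjusted p = 0.0208) and 0.65 in HS_AOS_FMT against HS_control_FMT (SE 0.11, adjusted p = 0.00583). The last kept its call in all 16 alternatives, while the first was lost without HS 2, HS 3, HS_AOS 2 or HS_AOS 3 (adjusted p up to 0.136) with the compared groups alone (0.195) and without the 3 adrenal-rich libraries (0.0759), and the second without HS 2, HS 3, HS_AOS_FMT 2 or HS_AOS_FMT 3 (up to 0.122) and without the 3 adrenal-rich libraries (0.158). Of the 10 proximal tubule markers, 8 were positive in HS_AOS against HS (median log2 0.27), 10 in HS_AOS_FMT against HS (0.16) and 9 in HS_AOS_FMT against HS_control_FMT (0.21), with 0 past the threshold, and their part in the Slc9a3 differences was not tested.

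Among the transcription factors, Esrrg, an estrogen-related receptor, was at 9.85, 8.44 and 7.83 FPKM in HS and 13.77, 12.42 and 13.49 in HS_AOS (log2 0.56, SE 0.11, adjusted p = 0.0279), above control too at 8.25, 10.03 and 10.14 (log2 0.45, SE 0.11, adjusted p = 0.0445). The first call was lost without HS 2 or HS 3 or without HS_AOS 2 or HS_AOS 3 (adjusted p up to 0.147), without the 3 adrenal-rich libraries (0.0785), with the trends with GC content and length removed (log2 0.40, adjusted p = 0.0962) and with the compared groups alone (0.195). The second was lost without any of control 1, control 2 and the 3 HS_AOS libraries (up to 0.148), with those trends removed (0.0830), without limma's trend option (0.0520) and with the compared groups alone (0.442).

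Wnk4, a kinase upstream of the cotransporter, and Avpr2, the vasopressin receptor, were lower in HS_control_FMT than in control. Wnk4 was at 27.84, 28.58 and 23.57 FPKM against 39.68, 36.24 and 74.08 (log2 -0.81, SE 0.20, adjusted p = 0.0404), and Avpr2 at 7.94, 8.86 and 5.58 against 13.61, 10.4 and 18.02 (log2 -0.82, SE 0.21, adjusted p = 0.0483). Without control 3 the differences were -0.50 (adjusted p = 0.0599) and -0.63 (adjusted p = 0.141), and both calls were also lost without each of the 3 HS_control_FMT libraries. Over the 16 alternatives Wnk4 passed in 9 (adjusted p up to 0.382) and Avpr2 in 6 (up to 0.330). Cldn14, which encodes a claudin that blocks the pore of Cldn16 and Cldn19, was lower in HS_AOS_FMT than in HS_control_FMT (log2 -1.06, SE 0.22, adjusted p = 0.0209). It was at 0.07, 0.2 and 0.39 FPKM against 1.48, 2.61 and 0.81, and at most 1.35 in the other 4 groups, so it entered the test through 3 libraries, 2 of them of HS_control_FMT, and without HS_AOS_FMT 1 or HS_AOS_FMT 2 it did not pass (adjusted p = 0.0831 and adjusted p = 0.0956).

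The genes most like the mean of the 9 standardized members, out of 8112 with a mean of at least 5 FPKM, were Gpx6 (r = 0.97 over the 18 libraries), Wfdc15b (0.91), Ptger3 (0.88), Hk1 (0.88) and Pla1a (0.88). Gpx6, a glutathione peroxidase, was at 17.35, 25.88 and 57.93 FPKM in control and 7.99, 4.26 and 7.23 in HS_AOS, and its r without control 3 was 0.95. Ptger3, the prostaglandin receptor EP3 and one of the 46 listed genes, was at 15.4, 21.65 and 29.43 FPKM in control and 6.97, 3.34 and 7.37 in HS_AOS. Both had every HS_AOS library below every control, a pattern of 6.95% of all genes. For Umod alone the most alike were Mettl7a2 (r = 0.90), Napsa (0.89), Methig1 (0.89), Wfdc15b (0.88) and Irx1 (0.87). Irx1, a homeobox factor also on the list, was at 9.99, 13.59 and 17.63 FPKM in control and 12.57, 3.31 and 4.31 in HS_AOS. These genes were picked for their likeness over the same libraries, so the correlations and the levels by group are a description.

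**Figure D4:**
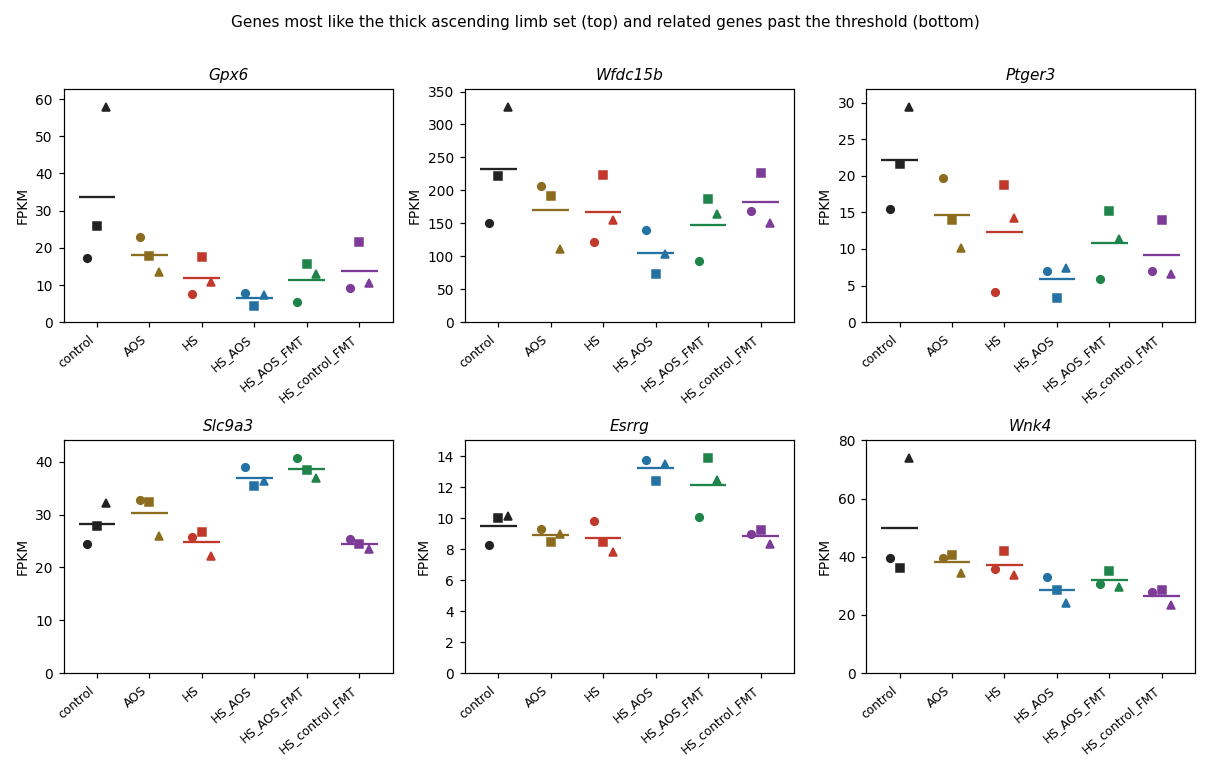
FPKM (vertical axes, from 0) of 6 genes in the 6 groups (horizontal axes), with library symbols and mean bars as in the plot of the 9 genes. The top row holds Gpx6, Wfdc15b and Ptger3, which were picked for their likeness to the 9 genes. Their group means are highest in control and lowest in HS_AOS. The bottom row holds Slc9a3 and Esrrg, higher in HS_AOS than in HS, and Wnk4, lower in HS_control_FMT than in control.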

How the data were processed

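The authors deposited 1 table with 1 value per gene symbol and library in FPKM, which they made before deposit. The unit was read from the values: weighted by transcript length, library totals varied by 0.93% (coefficient of variation), and unweighted by 4.29%. Bowtie 0.12.2 and mm10 are given per the submitters' processing notes, while the quantifier, its annotation and the strand setting were not given in the sources used here. There were no read counts, so depth is unknown. Libraries listed 15773 to 17270 genes above 0.

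Values were taken as log2(FPKM + 1). Genes at 1 FPKM or more in at least 3 of 18 libraries were tested (12385, with 7160 left out) in limma 3.58.1 (R 4.3.3, trend and robust options) with 1 mean per group, 12 residual degrees of freedom and Benjamini-Hochberg adjustment over all genes at 0.05. The method was tested on simulated data. All 9 members are named. Of the 46 related genes those past the threshold are named, except for results that are not reported here, and of non-members the 5 most correlated with the member mean and with Umod (predicted genes left out). Members and lists were chosen with earlier results of these data known. Positions and promoters are RefSeq's for GRCm38. Alternatives were a replicate block, quantile normalization, no trend, array weights, no filter, a minimum of 5 FPKM, a pseudocount of 0.1, the compared groups alone, removal of trends with GC content and length (12253 genes, 98.9%), leaving out the 3 adrenal-rich libraries (control 3, HS 3 and HS_AOS_FMT 2) and leaving out each library.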

Additional observations from a re-analysis of the deposited data

How the results depend on the processing

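No median of the 9 genes in HS_AOS or HS_control_FMT against control changed sign, and of the 35 single-gene differences recomputed 0 reversed. These 35 were the member differences with an unadjusted p under 0.05 and the calls among the related genes, so few reversals were possible. The replicate block, no trend, no filter, the minimum of 5 FPKM and the compared groups alone left each difference itself unchanged. The other differences of the 9 genes were not tried gene by gene. With array weights, whose estimation stopped before it converged, 8 of the 9 genes were lower in HS_AOS against control and 5 in HS_AOS against HS. With them 1 each was lower in HS against control (Egf), HS_control_FMT against HS (Bsnd) and HS_AOS_FMT against control (Bsnd). Of all 12385 tested genes these weights called 2044 lower in HS_AOS against HS, 908 in HS_control_FMT against HS and 39 in HS against control. Their count over all genes is not given for HS_AOS or HS_AOS_FMT against control. The 8 of the 9 genes therefore cannot be set against a share of all genes. Without the filter 1 passed in HS against control and 1 in HS_AOS_FMT against control, and with quantile normalization 2 passed in the latter. Of all 19545 genes, 239 were called lower in HS against control without the filter. With the compared groups alone 0 passed in HS_AOS against control and 0 in HS_control_FMT against control, and the fits held fewer samples. Without the 3 adrenal-rich libraries 0 passed in HS_control_FMT against control, and the median was -0.20 in HS against control and -0.26 for the difference of the AOS effects. Array weights gave -0.11 for the latter. Leaving out 1 library at a time gave 1 to 4 called in HS_AOS against control, 0 to 2 in HS_control_FMT against control and 0 to 1 in HS_AOS against HS. Medians then ranged from -0.60 to -0.20 in HS against control, from -0.279 to 0.0279 in HS_AOS_FMT against HS, from -0.06 to 0.18 in HS_control_FMT against HS, from -0.35 to -0.07 in HS_AOS_FMT against HS_control_FMT, from -0.53 to -0.22 in AOS against control and from -0.15 to 0.22 for the difference of the AOS effects. For the changes not tied to fewer samples or genes the cause was not tested. The replicate numbers did not pair the libraries: deviations of same-numbered libraries correlated between -0.36 and 0.31 (median -0.01, 45 pairs), and 7 of 18 libraries were most like one of their own number. With the replicate block 3 genes passed in HS_AOS against control, where Casr had an adjusted p of 0.0602, and 2 in HS_control_FMT against control. Of the listed genes, Esrrg (adjusted p = 0.0515 and 0.0755), Avpr2 (0.0811) and Wnk4 (0.0709) also missed the threshold with the block. Counts of reads were not used here, so the precision of low genes such as Cldn14 and Cldn16 cannot be given.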
